A study of Mus musculus with 38 samples.

Results

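The 38 arrays of epididymal stromal vascular cells were sorted by the level of Crisp1, a gene of the epididymis, and 21 arrays had high Crisp1, 11 arrays had low Crisp1 and 6 arrays lay between. The arrays were chosen by the level of the Crisp1 probe, which is the log2 of its processed signal minus the log2 of the 75th percentile signal of its array. A level of 0 is thus the brightness of the 75th percentile probe of the array, and a step of 1 is a 2-fold change. Arrays at 3 or more were called high, arrays at -3 or less were called low, and the others were left out of the comparison. Since the Crisp1 level chose the arrays, all differences between high and low arrays are given as a description with no test.

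The mice were of the C57BL/6J strain and were put on their diets when weaned, at 3 to 4 weeks of age. Controls received little fat (LFC, with 10 arrays), a second group much fat and sucrose (HFC, with 10 arrays), and 3 further groups the HFC diet plus 5, 20 or 75 µg of KAL-1, a botanical formulation (HF5, HF20, HF75, with 6 arrays per dose). For LFC and HFC the time points were D6, D10 and D14 (days) and then W0, W3, W6, W9, W12, W15 and W18 (weeks), and for the doses only W3 and later, always with a single array per diet and time point. Arrays go by their diet and time point. The design text speaks of 3 biological replicates, but how many mice gave the RNA of an array is not given in the sources used here. The labels call the cells infiltrating macrophages of epididymal fat, and 11 of the 12 macrophage genes looked at were well above background, as marked by the scanner software, on all 21 high and all 11 low arrays. The share of all probes so marked on an array had medians of 73.7% on high and 66.4% on low arrays. The count of macrophage genes is therefore no measure of purity. For 1 of the macrophage genes, Lyz2, which encodes lysozyme, the median level was 6.04 on high and 6.05 on low arrays. The mean level of all 12 had medians of 1.72 on high and 2.32 on low arrays.

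The epididymis is the coiled duct that carries sperm from the testis, and in mice the fat pad from which these cells were taken lies against it. Its principal cells secrete proteins into the duct under the control of androgen, among them Crisp1 (a cysteine-rich secretory protein that coats sperm), lipocalins (carriers of small lipids), ribonuclease-like proteins, beta-defensins (small cationic peptides of host defence) and inhibitors of proteases. The duct is divided into segments which express different genes: Lcn8, Ros1 and Rnase10 are known from the first segments of the duct, and mouse Crisp1 is known from segments further down. In such bulk RNA, fewer cells of a type and less RNA per cell cannot be told apart.

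The sequences on which the sorting and its main exception rest are those of the Crisp1 and the Lcn8 probes of the array, which are 60 bases long and are given 5′ to 3′ in lower case with no base set apart.
Crisp1 probe: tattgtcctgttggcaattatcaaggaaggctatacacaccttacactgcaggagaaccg
Lcn8 probe: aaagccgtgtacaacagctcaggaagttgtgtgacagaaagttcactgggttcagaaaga

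Crisp1 separated the arrays widely. On the 21 high arrays its level ran from 3.07 through a median of 5.32 to 8.88, and on the 11 low arrays it ran from -8.64 through a median of -7.05 to -4.38. On the 6 arrays between, the level was 2.72 (HF75 W9), 2.40 (HF20 W9), 0.24 (LFC W9), -0.13 (HF75 W15), -1.48 (HF5 W12) and -1.93 (HF75 W12). The high array nearest to its limit was HF5 W18 at 3.07, with HF75 W9 just outside at 2.72, and the low array nearest to its limit was LFC W18 at -4.38, with HF75 W12 just outside at -1.93. Crisp1 was well above background on all 21 high arrays and on 2 of 11 low arrays, LFC W0 and HF20 W18. Its spots were saturated on 8 high arrays, so that the level there is a lower bound. The highest level was that of HF75 W3, the dimmest of the high arrays.

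The arrays with much Crisp1 were spread over all diets. LFC had 4 high and 5 low arrays, HFC 8 and 2, HF5 4 and 1, HF20 3 and 2, and HF75 2 and 1. The share of high arrays among high and low arrays was 44.4% in LFC, 80% in HFC and in HF5, 60% in HF20 and 66.7% in HF75. For HF5 and HF20 at W15 and W18 the diet label names the other of these 2 doses. By that label, HF5 and HF20 would trade these counts and shares. An exact test of the 5 diets against the 2 classes (Fisher-Freeman-Halton, two-sided) gave p = 0.556, adjusted to 1 over the 6 tests of diet and time made here. The share was 35.6 percentage points higher in HFC than in LFC, and Fisher's exact test (two-sided) gave p = 0.17, adjusted p = 0.592. The shares of the doses (69.2%) and of HFC (66.7%) over W3 to W18 differed by 2.56 percentage points (Fisher's exact test, p = 1). In LFC and HFC, the share was 62.5% over D6 to W0 and 63.6% over W3 to W18 (Fisher's exact test, p = 1). With so few arrays these tests leave wide room for a difference.

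**Figure D1:**
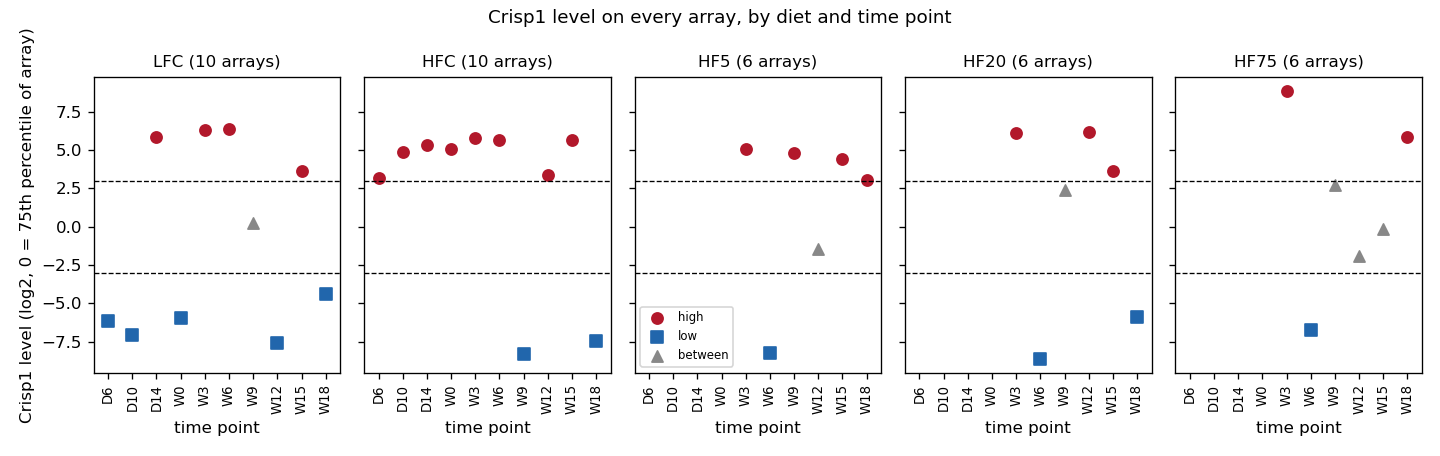
Crisp1 level (log2, 0 = the 75th percentile of the array) of each of the 38 arrays by time point, with a panel for each diet and dashed lines at the limits of 3 and -3. Circles are high, squares low and triangles between, and a time point at which a diet has no mark has no array. High and low arrays occur in every diet, and the levels of LFC and HFC switch between time points.

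Within a time point the diets did not keep one order. At D6 the level of Crisp1 was -6.15 in LFC and 3.16 in HFC, at D10 -7.05 and 4.89, at W0 -5.96 and 5.06, and at W12 -7.56 and 3.39. At these 4 time points the LFC array was low and the HFC array high. At D14, W3, W6 and W15 both arrays were high, at W18 both were low, and at W9 LFC was between at 0.24 and HFC low at -8.28. In LFC the level was 5.87 at D14 and -5.96 at W0, which the paper treats as the same time. At W3 all 5 arrays were high. At W6 the levels were 6.36 in LFC, 5.69 in HFC, -8.27 in HF5, -8.64 in HF20 and -6.71 in HF75, so that the 3 arrays of the formulation were low and both others high. At W18 the order was another, with HF75 (5.84) and HF5 (3.07) high and LFC (-4.38), HFC (-7.45) and HF20 (-5.89) low. By the diet label, HF5 and HF20 of W18 would change places.

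Over the 10 time points, HFC minus LFC of Crisp1 was 3.19 ± 7.12 (SD) on the log2 scale and was above 0 at 5 of 10, and the exact two-sided sign-flip permutation test gave p = 0.197, adjusted p = 0.592. Without D6 and D10, whose LFC arrays held brown fat transcripts, the mean was 1.33, above 0 at 3 of 8. The dose mean minus HFC was 0.32 ± 9.0 (SD) over the 6 weeks, above 0 at 3 of 6 (exact sign-flip permutation test, p = 0.969, adjusted p = 1), where 6 weeks allow no p below 0.031. The second difference turned with single weeks: it was 3.09 without W6, -1.93 without W9 and -1.31 without W18. Rnase12 and Defb28 moved with Crisp1 at the 4 time points of opposite classes, with HFC above LFC by 7.70, 10.84, 11.09 and 7.08 for Rnase12 and by 9.93, 10.69, 10.57 and 9.77 for Defb28 at D6, D10, W0 and W12. At these time points Crisp1, Rnase12, Lcn8 and Defb28 were not well above background on LFC D6 and LFC D10. On LFC W12 this held for all but Rnase12, and on HFC W0 all but Lcn8 were saturated. The differences measured there are thus limited by the range of the scanner and are not exact. The mean difference of Crisp1 shares this limit. For Lcn8 the measured difference was 5.54, 8.06 and 7.30 at D6, D10 and W12 but -0.64 at W0. It was -8.44 at D14 and 8.5 at W3, where both arrays were high in Crisp1. On LFC W3 too, Lcn8 was not well above background.

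**Figure D2:**
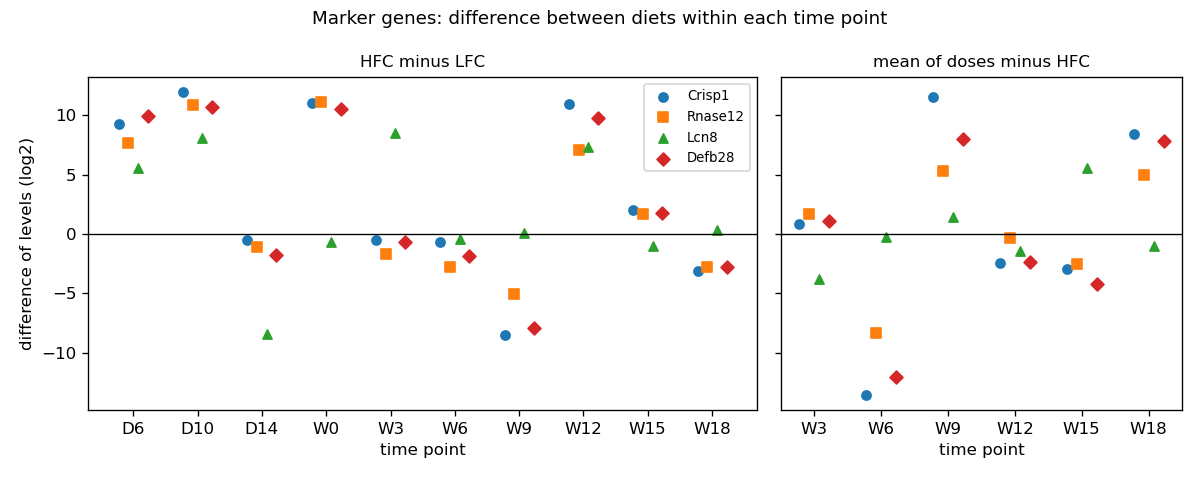
Difference in level (log2) between diets within each time point for the 4 marker genes Crisp1, Rnase12, Lcn8 and Defb28, with HFC minus LFC on the left and the mean of HF5, HF20 and HF75 minus HFC on the right; each mark is 1 gene at 1 time point. The marks of Crisp1, Rnase12 and Defb28 lie together at most time points, and those of Crisp1 reach 11.94 (HFC minus LFC, D10) and -13.56 (doses minus HFC, W6), while those of Lcn8 often stand away from them, as at D14, W0, W3 and W9 on the left and at W6, W15 and W18 on the right.

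Of the 4 marker genes of the epididymis, Crisp1 had to separate the classes, since it set them. Of the others, Rnase12 and Defb28 did so as well and Lcn8 did not. Rnase12, a ribonuclease-like gene, ran from -0.51 through 3.67 to 7.20 on high arrays and from -6.83 through -6.12 to -2.19 on low arrays. Defb28, a beta-defensin, ran from 0.09 through 4.24 to 9.58 on high arrays and from -8.25 through -7.19 to -4.70 on low arrays. Neither gene's levels overlapped between the classes. Lcn8 ran from -8.19 through -4.62 to 5.37 on high arrays and from -9.03 through -7.10 to -3.98 on low arrays, and only 9 of 21 high arrays were above every low array. It was well above background on 12 of 21 high arrays. The arrays called high are therefore described as arrays with Crisp1, and the label of epididymis transcripts holds for a large set of genes, but not for every segment's genes on every array.

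Across the whole array, 38 of 40628 probes (0.0935%) were higher on all 21 high arrays than on all 11 low arrays with medians at least 4-fold apart, and 0 probes (0%) were lower by the same rule. The 38 probes stand for 35 genes, of which 18 were in the lists of epididymal genes and 17 were not. They include the Crisp1 probe itself, which was apart by the way the arrays were chosen. The count depends on how the classes were set: it was 13 with limits of 2 and -2, and 272 (with 2 lower) where the mean of the 4 markers set the classes. Since their levels do not overlap, all 38 had to be higher on high arrays within each of the 7 scan days that held both classes. The agreement over scan days is therefore no separate evidence. Over all probes the median difference was -0.04 and 45.8% were higher on high arrays, whereas 88 of the 93 epididymal genes measured were higher, with a median difference of 5.17.

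Among the genes with the largest measured differences was Spink8, a protease inhibitor of the Kazal type, which was at 2.89 to 9.47 on high arrays and at -8.99 to -0.35 on low arrays. Its medians were 5.43 and -7.37, its spots were saturated on 12 of the 21 high arrays, and it was well above background on 3 of 11 low arrays, so that the genes at the top have no exact order. Serpina16, of the serpin family of protease inhibitors, had medians of 4.86 on high and -7.79 on low arrays, and was well above background on 1 of 11 low arrays. Serpina1f, another serpin, was well above background on all 21 high and on 0 of 11 low arrays, and was at least 1042-fold higher on high arrays. Such a bound sets the mean of the high arrays against the weakest signal that counted as above background on each low array, or the probe's own level where that was higher.

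Inhibitors of proteases made up much of the set. Of the 19 protease inhibitors of the male tract, 7 were apart between the classes (Spink8, Wfdc10, Wfdc13, Wfdc16, Spint3, Wfdc6b and Eppin), and all 19 had the higher median on high arrays. Wfdc10, Wfdc13 and Wfdc16, which encode proteins with a whey acidic protein domain, had medians of 4.75, 3.43 and 3.58 on high arrays and of -5.90, -6.95 and -6.57 on low arrays. Spint3, of the Kunitz type, was at least 552-fold higher by the brighter of its probes and at least 144-fold by the other. Eppin, which encodes a protein found on the surface of sperm, ran from -1.74 to 6.03 on high and from -7.74 to -2.17 on low arrays, the smallest gap of these 7. Wfdc15b missed the rule by 1 array, with 20 of 21 high arrays above every low array. The mean level of the list ran from -2.90 through 0.06 to 4.30 on high and from -7.68 through -6.28 to -3.28 on low arrays.

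Of the 45 beta-defensins and Spag11 genes measured, 7 were apart (Defb1, Defb2, Defb23, Defb28, Defb37, Defb38 and Defb43) and 43 had the higher median on high arrays. Defb38, Defb43 and Defb37 were well above background on 0 of 11 low arrays and were at least 316-fold, 231-fold and 112-fold higher on high arrays. Defb1 was apart by 2 of its 3 probes, with medians of 0.25 and -8.32 by the brightest. Other members were low throughout: Defb8 and Defb44-ps were well above background on no high and no low array, and Defb4 was on 5 of 21 high arrays.

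Of the ribonucleases, Rnase12 and Rnase9 were apart, Rnase9 with medians of 0.22 and -8.35, while Rnase13 had medians of -7.20 and -6.87. Of the cysteine-rich secretory proteins only Crisp1 was apart. Crisp4, another epididymal member, had medians of -1.42 and -7.03 with 16 of 21 high arrays above every low array, and Crisp3 had medians of -8.10 and -7.60. Among the other principal cell genes, 1 of 11 was apart, Ces5a, a secreted carboxylesterase, with medians of 2.02 and -6.02. Adam7, a membrane protein that is passed to sperm, had medians of 2.66 and -7.11, and overlapped through HF20 W18 (0.12), which was above 4 high arrays. No lipocalin (0 of 6) and no cystatin (0 of 3) was apart.

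**Figure D3:**
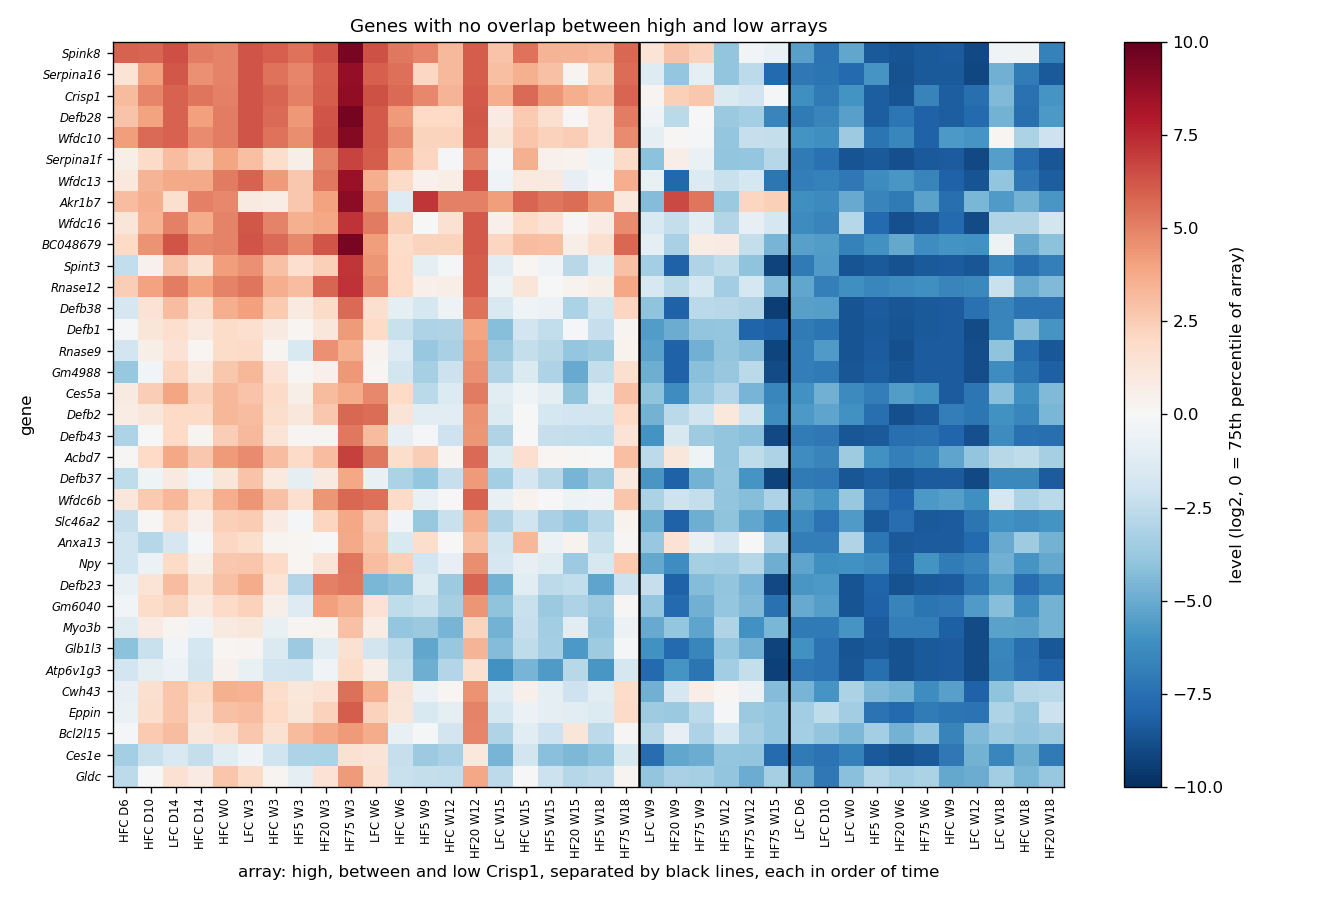
Levels (log2, 0 = the 75th percentile of the array, red above and blue below) of the 35 genes whose levels did not overlap between high and low arrays, by the probe of highest mean, with genes in rows by median difference and the 38 arrays in columns. Black lines separate the 21 high, 6 between and 11 low arrays, each in order of time; HF75 W3 and HF20 W12 are red in nearly all rows, and the W15 arrays are pale in the lower rows.

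A further 17 genes that were apart lay outside the epididymal lists. Akr1b7, an aldose reductase-like enzyme known from the vas deferens, had medians of 4.42 and -5.84. It did not follow Crisp1 closely: it reached 6.58 on HF20 W9, an array between, and was at -1.28 on HFC W6, a high array. BC048679 had medians of 4.46 and -5.62, and Acbd7, which binds acyl-CoA, 2.45 and -5.29. Npy, which encodes neuropeptide Y, ran from -3.62 through 0.55 to 5.33 on high arrays and from -8.23 through -6.04 to -4.81 on low arrays. Atp6v1g3, a subunit of the proton pump of clear cells, was at least 44.4-fold higher, and Glb1l3 at least 44.5-fold and Gm4988 at least 162-fold. Slc46a2, Anxa13, Gm6040, Myo3b, Cwh43 and Bcl2l15 had median differences between 7.42 and 5.15. The last 2 of the 17 genes, Ces1e and Gldc, had the smallest differences (4.78 and 4.17) and are named here after their values were seen.

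The high arrays were not alike. Of the 93 epididymal genes, 6 reached the 75th percentile of the array (a level of 0 or more) on all 21 high arrays (Crisp1, Defb28, Spink8, Wfdc10, Wfdc15b and Wfdc16), 64 did so on some and 23 on none. These counts depend on each probe's own brightness and are given to show on which arrays a gene was high. Lcn8 reached 0 on 5 high arrays: HF5 W3 (5.37), LFC D14 (4.10), HF20 W15 (3.23), HFC W3 (1.82) and HFC D10 (0.98). Its next levels were -1.12 (HF5 W15), -1.56 (HFC D6) and -1.73 (HFC W12), and on the other 13 high arrays it lay at -3.78 or less.

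The same 5 arrays stood out for other genes. Lcn9 and Defb25 reached 0 on exactly these 5 arrays and on no other high array. Of the 20 epididymal genes that reached 0 on 1 to 5 high arrays, 12 did so only on arrays among these 5: Lcn8, Lcn9, Lcn10, Defb18, Defb19, Defb25, Defb41, Rnase10, Cst12, Adam28, Ovch2 and Rhox5. Lcn8, which set the 5 arrays, is among the 12 by definition, and the matching share over all probes is not given here. Rnase10 was at 0 or more on 4 of the 5, and Lcn10 and Ovch2 on 3. Gpx5, a glutathione peroxidase secreted in the head of the epididymis, was at 0 or more on 8 high arrays, which included all 5, and Cst11, a cystatin, on 7, which also included all 5. Ros1, a receptor of the first segment, stayed below 0 on every high array, with -0.53 as its highest level. The 5 arrays came from 4 time points and, by source name, from 4 diets. By the diet label, in which HF20 W15 is HF5, they came from fewer diets. They were picked out after the values were seen, so that their grouping is a description only.

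Other genes were high on another set. Rnase9 and Lcn12 reached 0 on 11 high arrays each, the same 11: HFC D10, LFC D14, HFC D14, HFC W0, HFC W3, LFC W3, HF20 W3, HF75 W3, LFC W6, HF20 W12 and HF75 W18. HF5 W3 and HF20 W15, 2 of the arrays of highest Lcn8, were not among them. On the 4 high arrays of W15, Crisp1 was at 3.62 (LFC), 5.64 (HFC), 4.45 (HF5) and 3.66 (HF20), whereas Rnase12 was at -0.51, 1.18, -0.02 and 0.32. On LFC W3, with Crisp1 at 6.30, Rnase12 was at 5.35 and Lcn8 at -6.67. On HF5 W3 of the same week, with Crisp1 at 5.05, Rnase12 was at 3.10 and Lcn8 at 5.37.

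**Figure D4:**
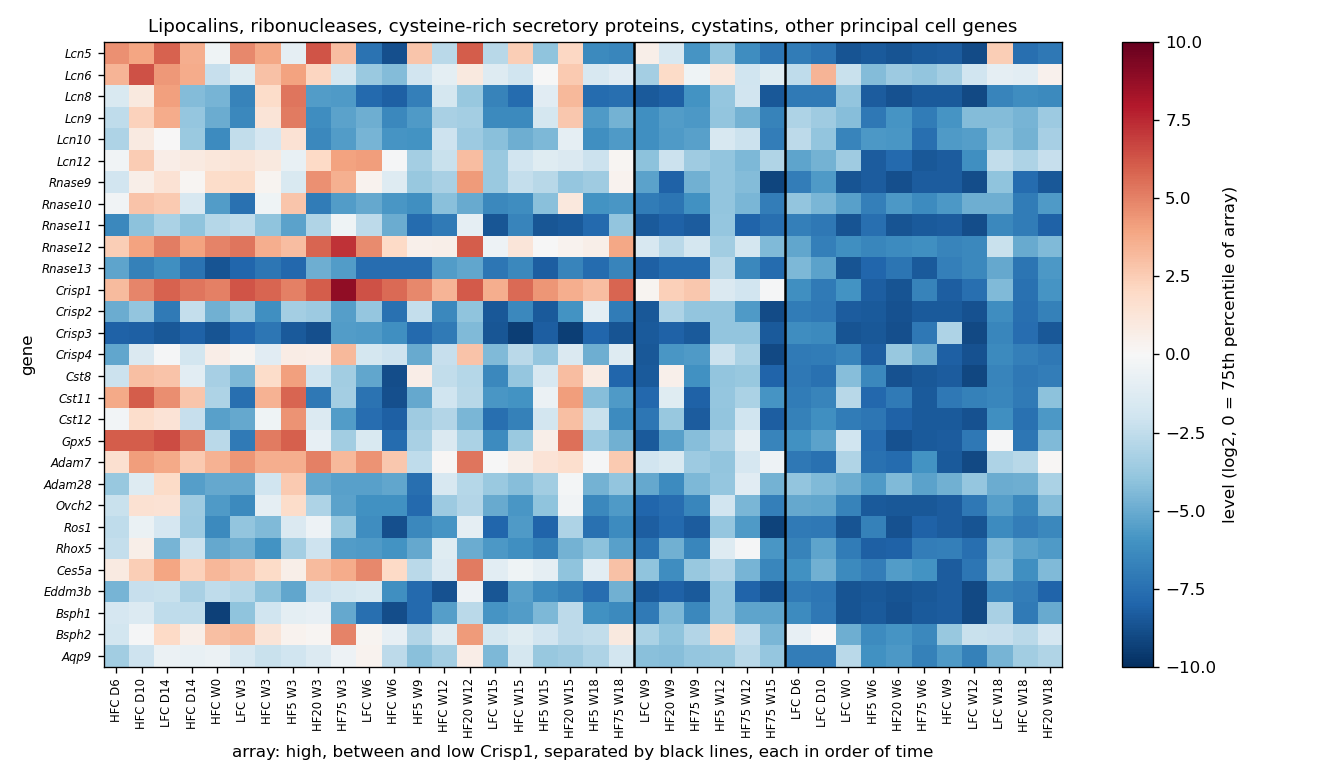
Levels (log2, 0 = the 75th percentile of the array, red above and blue below) of the lipocalins, ribonucleases, cysteine-rich secretory proteins, cystatins and other principal cell genes on the 38 arrays; black lines separate the 21 high, 6 between and 11 low arrays, each in order of time. The row of Crisp1 is red over all high arrays, and those of Lcn8, Lcn9, Rnase10 and Cst12 are red on HFC D10, LFC D14, HF5 W3 and HF20 W15.

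On the low arrays, many epididymal genes were near the background. Of the 93 genes, 17 were well above background on 0 of 11 low arrays, and 42 were so on all 21 high arrays. LFC W18, whose Crisp1 level was nearest to the limit, gave the highest level among the low arrays for 18 of the 38 probes. That array was dim, with a 75th percentile signal of 230 scanner units, and its weakest signal above background was at a level of -5.78, the highest such floor among the low arrays. Some low arrays held single genes at high levels, such as Lcn6, up to 3.39 (LFC D10), and Lcn5, up to 2.43 (LFC W18), whose other probe reached -3.74 at most on low arrays.

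Most genes of the epithelial, basal and clear cell lists had the higher median on high arrays, but all except Atp6v1g3 overlapped between the classes. All 13 epithelial genes had the higher median on high arrays, and the mean level of the list had medians of 0.20 and -4.42. Cldn7, a claudin, had medians of 3.05 and -3.22, Krt8, a keratin, 5.50 and -0.02, and Epcam, an adhesion molecule of epithelia, 1.04 and -3.54. No epithelial gene was apart, and LFC W0, a low array, had Krt8 at 5.32. Of the 5 basal cell genes, 4 had the higher median, with Krt15 at -0.11 and -7.25 and Krt5 at 0.86 and -3.78, while Itga6 had the lower (0.26 and 1.68). Of the 6 clear cell genes, 5 had the higher median and Atp6v1g3 was apart. Srd5a2, the enzyme that makes dihydrotestosterone, had medians of -0.29 and -6.85.

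All 8 mesothelial genes had the higher median on high arrays, but mesothelium also covers the fat pad and the list overlapped fully, from -5.60 to 1.80 on high and from -5.73 to 2.17 on low arrays. Lrrn4 had medians of -1.66 and -5.18 and Gpm6a 0.77 and 0.29. HFC W6 was high in Crisp1 (5.69) with the lowest mesothelial level of the high arrays, and HFC W18 was low in Crisp1 (-7.45) with the highest of the low arrays.

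All 14 spermatid and sperm genes had the higher median on high arrays, and 0 were apart. Ldhc, the lactate dehydrogenase of sperm, had medians of 0.55 and -6.81, Prm2, a protamine, 1.65 and -3.42, and Acr, the protease acrosin, -3.55 and -3.73. Prm2 was highest on HF5 W9 (6.79), HF20 W9 (6.62) and HF5 W18 (6.18), of which HF20 W9 lay between the limits of Crisp1. Seminal vesicle genes had another pattern. Svs4, which encodes a secreted protein of that gland, was at 6.86 on HFC W18, a low array, and at 6.53 on HF5 W18, a high array, and these were scanned on the same day. Its medians were -7.04 on high and -8.27 on low arrays.

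Lists of cells of the fat pad had lower medians on high arrays, but not within every scan day. Of the 7 scan days with both classes, high arrays were above low arrays on 4 for the macrophage list. They were above on 3 for the T cell and for the fibroblast and progenitor lists, 2 for B cells, 1 for adipocytes and 0 for endothelial genes. The macrophage list had medians of 1.72 and 2.32, with 2 of 12 genes higher (Cd14 at 3.12 and 2.46, and Itgam at -2.27 and -2.40), the adipocyte list 1.71 and 2.27, with 1 of 9 higher, and the endothelial list 1.69 and 2.45, with 0 of 8 higher. Plin1, which coats lipid droplets, had medians of 0.16 and 1.86. The fibroblast and progenitor list had medians of 3.65 and 3.89 with Dcn, a proteoglycan, at 6.07 in both. The skeletal muscle list had medians of -2.27 and 0.68, the largest negative difference of a list, with Myh4, a fast myosin, at -3.83 and 1.80. At W6 it was at 4.53 (LFC) and 1.04 (HFC), both high arrays. It was at 1.34 (HF5), 2.18 (HF20) and 1.47 (HF75) at W6, all low arrays. Within scan days, high minus low ran from -4.99 to 1.69 and was above 0 on 3 of 7. The part of week in this difference was not tested. Erythroid (-1.35 and 0.13), brown fat (-4.33 and -3.19), T cell (-2.46 and -1.69), B cell (-4.03 and -3.12), cell cycle (-1.17 and -0.96) and reference genes (2.43 and 2.70) had lower medians too, and smooth muscle (3.75 and 3.61) and immediate early genes (4.91 and 4.64) a little higher. Without LFC D6 and LFC D10 the cell cycle list changed sign, from -0.22 to 0.085 (high minus low). All these lists overlapped between the classes. Levels are relative to the 75th percentile of each array, so that more of some transcripts and less of others cannot be told apart. The part of these lists in the differences of the epididymal genes was not tested.

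**Figure D5:**
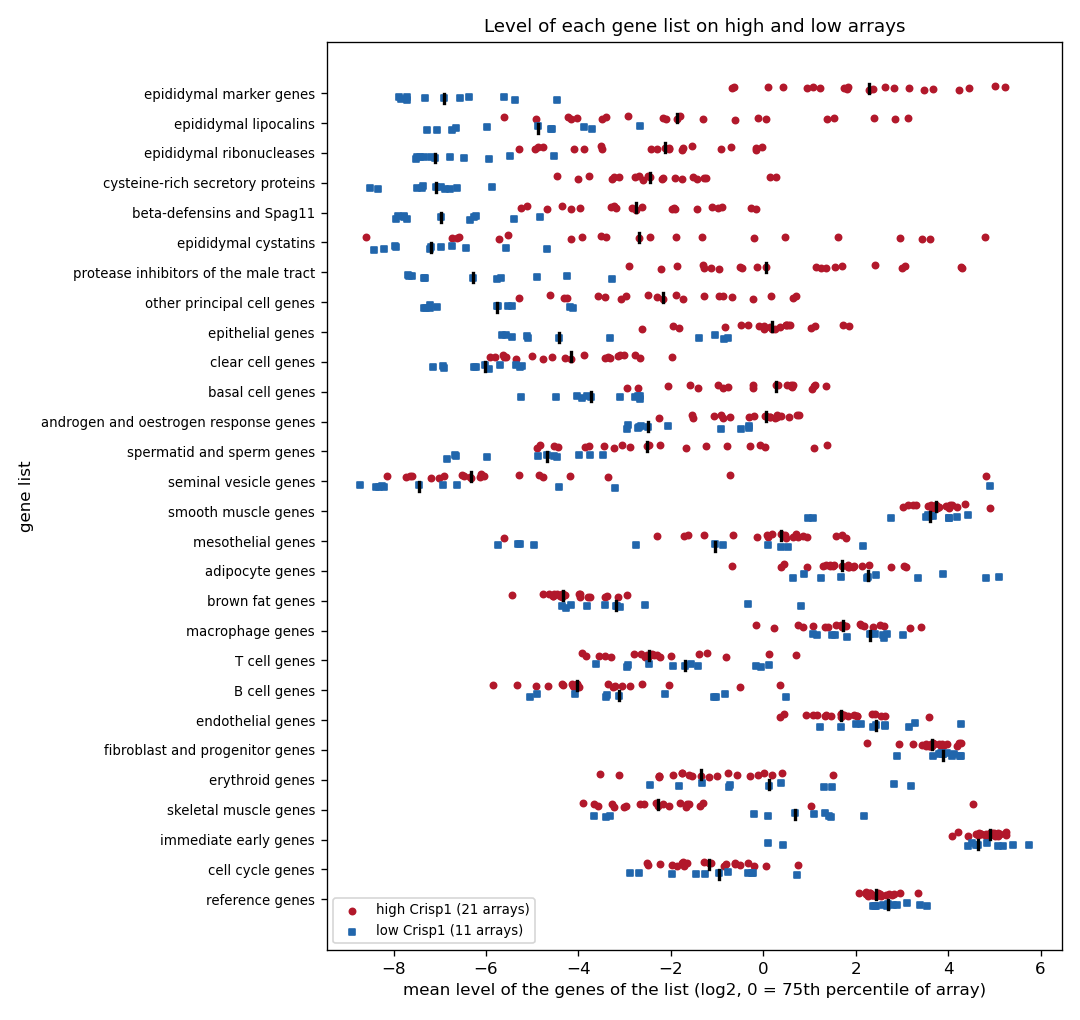
Mean level of the genes of each of the 28 lists (log2, 0 = the 75th percentile of the array) on each high array (circles, 21) and low array (squares, 11), with a black bar at the median of each class. The protease inhibitors do not overlap between the classes and the lists of fat pad cells do; the marker genes and the cysteine-rich secretory proteins do not overlap either, but hold Crisp1, which set the classes.

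The 75th percentile signal had medians of 950 scanner units (88.4 to 1983) on high and 1029 (229 to 1588) on low arrays, and the share of probes well above background had medians of 73.7% and 66.4%. The 14 scan days, as given in the file headers, and the 31 slides, as numbered in the names of the scanner output, were partly shared by the classes. Of these, 7 scan days and 3 slides held both high and low arrays, and the others did not. The part of scan day and slide in the differences was not tested. Within these 7 days, the mean level of high minus low arrays was between 1.55 and 9.26 for the protease inhibitors, between 0.86 and 6.02 for the beta-defensins, between 0.60 and 6.32 for the epithelial genes, and between -1.31 and 6.73 for the lipocalins. The slides of D6, D10 and W12 each held the low LFC array and the high HFC array of the time point. Other arrays that stood out were HF5 W12, the dimmest at 25.8 scanner units, and those with brown fat transcripts. Ucp1, the uncoupling protein of brown fat, was at 6.93 on HF5 W12, 5.11 on LFC D10 and 3.83 on LFC D6. The adipocyte list was highest on LFC W9 (5.15), HF75 W12 (5.14), HFC W9 (5.10) and LFC W12 (4.82). Without LFC D6 and LFC D10, 42 probes were apart, and without these adipocyte-rich arrays 39. Leaving out arrays can only loosen the demand of no overlap, so that these counts could hardly fall.

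The diets were then compared across all probes, a contrast the sorting did not use. In HFC minus LFC over the 10 time points, limma with time point as a block called 0 of 31208 probes (0%) at an adjusted p under 0.05, and 2779 had an unadjusted p under 0.05. Of the 104 probes of epididymal or apart genes that were tested, 0 were called and 4 had an unadjusted p under 0.05, while 103 were higher in HFC with a median difference of 1.74, against 52.3% and 0.02 over all probes. These probes rise and fall together on the same arrays and are not separate evidence. HFC had 8 high and 2 low arrays and LFC 4 and 5, and the apart probes were chosen by these classes. A probe could also pass the filter through the diet where it was bright. The count of probes higher in HFC thus restates the classes and is no result about diet. Spink8 was 3.72 ± 2.14 (SE) higher in HFC (limma, adjusted p = 0.562), Crisp1 3.19 ± 2.0 (adjusted p = 0.58) and Lcn8 1.93 ± 1.5 (adjusted p = 0.632). For the doses, averaged within each week and set against HFC, 0 of 33787 probes (0%) were called, and 532 had an unadjusted p under 0.05. Of the 106 probes of epididymal or apart genes tested here, 64 were higher with the formulation, with a median difference of 0.13, against 50.9% and 0.01 over all probes. Both comparisons share the HFC arrays of W3 to W18. The lowest unadjusted p among them was that of Defb12, a beta-defensin, at 1.80 ± 0.68 (SE) higher (limma, adjusted p = 1). A p that misses the threshold does not show that the diets were alike, and the spread of Crisp1 within a diet was larger than these differences. It ran from -7.56 to 6.36 in LFC, and in HFC its lowest level was -8.28 and its highest 5.80.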

How the data were processed

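The 38 Agilent arrays were hybridised in 1 colour with total RNA. The authors' scanner output gives an intensity per spot, from which Feature Extraction 10.5.1.1 per the file headers (9.1 per the submitters' processing notes) had subtracted the background. The authors also deposited a table of log2 ratios from GeneSpring GX, in which LFC at the matching time point is the denominator, and it was used only as an alternative. Control and outlier spots were left out, the 75th percentile was subtracted on the log2 scale and spots of a probe were averaged. Of 40628 probes, 28128 matched a RefSeq gene table, which gave names to them. Genes with several probes are shown by the probe of highest mean level.

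Lists had a level per array that is the mean over their genes. For limma 3.58.1 (R 4.3.3), a probe had to be well above background in a 0.5 share or more of 1 diet's arrays, and p-values were Benjamini-Hochberg adjusted. Exact tests were run in Python 3.11.15 with scipy 1.17.1. Scripts were tested on simulated data. With 1 array per diet and time point, p-values measure the spread over time points, and the number of arrays limits the precision.

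The arrays, gene lists and tests were chosen with earlier results of these data known. The rule for naming allowed any gene of the 8 epididymal lists. It also allowed the 15 other genes with the largest difference up and 10 down among probes apart between the classes and well above background on at least 80% of the arrays of the brighter class. Of every other list it allowed 2 to 4 genes of largest and smallest difference, but for many of these lists fewer or none are named here. Cd14 and Itgam were named as the macrophage genes with the higher median. For W15 and W18 of HF5 and HF20 the diet label conflicts with source name and title, and the latter gave the dose. Alternatives were other scalings, limits, filters and sets of arrays.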

Additional observations from a re-analysis of the deposited data

Results flagged for a closer look

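Values far from the rest of their diet were looked for in the 4 marker genes and the 7 other epididymal lists, in 55 groups of arrays. A value counted as far when its gap to the next array, as a share of the whole range, passed Dixon's critical value, which chance passes in about 1 of 20 groups. There were 4 such values. LFC D14 stood above the other LFC arrays in Lcn8 (4.10), in the mean of the lipocalins (3.13) and in the mean of the cystatins (2.95), and HF5 W6 stood below the other HF5 arrays in the mean of the cysteine-rich secretory proteins (-8.33).

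HFC minus LFC of Rnase12 was 7.72 higher over D6 to W0 than over W3 to W18 on the log2 scale, with means of 7.13 and -0.59. The exact two-sided permutation test over the 210 ways to place the 10 time points gave p = 0.0429, which did not hold after adjustment over the 4 marker genes (adjusted p = 0.127). The same difference was 7.90 for Crisp1 and 7.66 for Defb28 (exact permutation p = 0.0952 each) and -1.33 for Lcn8 (exact permutation p = 0.724).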

How the results depend on the processing

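Normexp with quantile scaling left 19 high and 0 low arrays, so shares, counts and lists could not be given under it. With the classes kept (chosen after seeing the data), 25 probes were apart, 24 of them among the 38. Limits of 2 and -2 gave 13 probes, and limits of 4 and -4 gave 54. A class from the mean of the 4 markers gave 7 high and 13 low arrays, with 272 probes higher, 36 of them among the 38, and 2 lower. Leaving out each array in turn, also chosen after seeing the data, gave 38 to 44 probes higher and 0 lower. Fewer arrays, as here and with limits of 4 and -4, can only loosen the demand of no overlap. Such a count could therefore hardly fall, and it is no check of the 38. Without LFC D6 and LFC D10, or without the adipocyte-rich arrays, 42 and 39 were apart, where the same holds.

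The share of high arrays over D6 to W0 minus that over W3 to W18 turned from -1.14 percentage points to 1.59 under limits of 4 and -4, 20 with the mean of the markers and 19.7 without LFC D6 and LFC D10. Crisp1 in the doses minus HFC turned from 0.32 to -0.086 with quantile scaling and -0.50 with normexp, and ran from -1.93 to 3.09 without each week in turn. HFC minus LFC of Crisp1 ran from 2.22 to 4.49 without each time point and was 1.33 without D6 and D10. None of the 50 exact tests under alternatives passed 0.05, and the lowest p was 0.0918. For these turns the cause was not tested. Of 280 list values, 259 moved by less than the spread within classes, and 1 changed sign, the cell cycle list without LFC D6 and LFC D10 (-0.22 to 0.085). The 21 others included most epididymal lists under normexp with the classes kept, where every epididymal difference shrank. High minus low fell from 9.19 to 5.61 for the marker genes and from 6.34 to 3.58 for the protease inhibitors. For the beta-defensins it fell from 4.22 to 1.69 and for the cystatins from 4.50 to 1.05.

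In limma, 0 probes were called under every alternative run, also without each time point in turn. With no replicate block for time point (no paired fit) 0 were called too, with 1169 probes at an unadjusted p under 0.05 in HFC minus LFC and 206 in the doses minus HFC. With the Crisp1 level as a covariate 1385 and 719 had such a p. The deposited ratios kept the direction of both Crisp1 differences. On dim arrays the floor hides low levels. Crisp1 was well above background on 2 of 11 low arrays, and on the others, bright ones such as HFC W9 among them, its level is a bound.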
